A study of Mus musculus with 4 samples.

Results

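The myosin-binding proteins of striated muscle form a family of 5 genes, Mybph, Mybphl, Mybpc1, Mybpc2 and Mybpc3, and their expression was followed in quadriceps of WT and Mef2dα2 Eko mice. The members were taken by gene symbol and make up 5 of the 51826 rows of the count table. Of these, 4 had reads and were tested, while Mybphl had none. The family was chosen by the difference between the genotypes, since Mybph was known to have the smallest adjusted p-value of all genes in this contrast. The differences between genotypes given here for the members are therefore descriptions that carry no test of their own.

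WT and Mef2dα2 Eko (hereafter Eko) mice were sedentary males of the C57BL6/J background, about 20 weeks old, kept on chow and a light and dark cycle. Eko mice lack the muscle-specific α2 exon of Mef2d, removed with Cas9 and guide RNAs on either side of the exon. Cas9 founders gave several lines, and the line that was sequenced is not given in the sources used here. Each genotype had 2 mice, each mouse gave 1 polyA library of whole quadriceps, and the WT mice were littermates of the knockouts. Other cell types of the muscle are therefore in the same RNA, and fewer cells of a type cannot be told apart from less RNA per cell.

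Myosin-binding protein C lies on the thick filament of the sarcomere, where its immunoglobulin and fibronectin domains bind myosin and titin and it regulates how myosin heads meet actin. By name, the product of Mybpc1 is the slow, that of Mybpc2 the fast and that of Mybpc3 the heart C-protein. Phosphorylation of the heart C-protein tunes the heartbeat. The names do not give the fibres that held each transcript here, since whole muscle was sequenced. Myosin-binding protein H, encoded by Mybph, is a shorter relative in skeletal muscle that shares the C-terminal domains of the C-proteins, and Mybphl encodes a like protein of the heart.

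The annotated proteins show the same division. Mybph encodes 483 residues and Mybphl 355, against 1127 for Mybpc1, 1136 for Mybpc2 and 1278 for Mybpc3 in the longest coding transcript of each. In GRCm38, Mybph (ENSMUSG00000042451.12) lies on the plus strand at chr1:134193448-134201232 and has 10 exons. Mybpc3 (ENSMUSG00000002100.15) is on the plus strand at chr2:91118144-91136516 and has 35 exons in its longest transcript. Mybphl (ENSMUSG00000068745.6) lies on the plus strand at chr3:108364911-108380057. The minus-strand members are Mybpc1 (ENSMUSG00000020061.17) at chr10:88518279-88605152 and Mybpc2 (ENSMUSG00000038670.11) at chr7:44501699-44524656. The family thus lies on 5 chromosomes, 1 gene on each.

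MEF2D is a transcription factor, so the 250 bases before the start of each member were read from the RefSeq promoter table (GRCm38.p6), which held all 5 members. They are shown for Mybph, the member that differed most between the genotypes, and for Mybpc3, the sole member with a match to the MEF2 consensus. Capitals mark the E-boxes, the MEF2 match and, in Mybph, a TATA sequence, and both windows are on the plus strand.
Mybph, chr1:134193198-134193447: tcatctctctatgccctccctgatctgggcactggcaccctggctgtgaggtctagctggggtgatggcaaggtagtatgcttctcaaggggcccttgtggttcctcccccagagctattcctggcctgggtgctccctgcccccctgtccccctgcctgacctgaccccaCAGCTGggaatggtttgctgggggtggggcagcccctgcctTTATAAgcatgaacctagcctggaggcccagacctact
Mybpc3, chr2:91117894-91118143: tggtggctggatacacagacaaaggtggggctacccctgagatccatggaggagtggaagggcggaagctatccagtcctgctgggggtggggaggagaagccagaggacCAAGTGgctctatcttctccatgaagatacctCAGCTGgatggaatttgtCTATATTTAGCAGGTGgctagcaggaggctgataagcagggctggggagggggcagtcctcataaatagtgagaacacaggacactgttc

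The MEF2 match in Mybpc3, CTATATTTAG, begins 90 bases before the start and is followed directly by an E-box, CAGGTG. A MEF2 consensus on either strand is held by 2.92% of 32851 windows of this length. E-boxes, searched as CANNTG, are held by 66.2% of windows. Mybph holds 1 of them, CAGCTG, at 79 bases, while Mybpc3 holds 3, Mybpc1 2, Mybpc2 1 and Mybphl 0. Mybph is the sole member with TATAA, searched on both strands, 37 bases before the start, which 22.8% of windows hold. No member holds a CArG box, the sequence bound by serum response factor, which 1.47% of windows hold. These are matches of letters in a short window, and binding was not measured here.

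The libraries held between 72626757 and 85176059 counts, and the totals of the genotypes overlapped. A count of 3, taken as the least a library can show, equals 0.0348 to 0.0419 CPM (counts scaled by the effective library size from TMM) and covers counting error only. Mef2d itself averaged 243 ± 22.6 CPM in WT and 246 ± 7.82 CPM in Eko mice (± SD, n = 2 mice each), but counts per gene do not separate its α exons and so check no label. Skeletal muscle markers such as Acta1 and Myh4 summed to between 132950 and 143270 CPM, which fits the labelled tissue. With 2 mice a genotype, the smallest p of an exact permutation test is 0.333, so each call rests on the quasi-likelihood test of edgeR, meant below by edgeR where no other test is named, with Benjamini-Hochberg adjustment over 16120 genes.

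Levels of the members were compared per length, in CPM per kb of merged exons. Mybpc2, the fast C-protein, led in every library, at 1263 and 1274 CPM per kb in WT against 1187 and 1235 in Eko mice. Mybpc1, the slow C-protein, followed at 154 and 171 CPM per kb in WT against 169 and 147 in Eko mice. Mybph came next, at 28.3 and 27.5 CPM per kb in WT against 62.9 and 66.8 in Eko mice. The heart C-protein Mybpc3 came last among those detected. Its levels were 2.04 and 1.03 CPM per kb in WT against 1.19 and 0.783 in Eko mice. No library of one member overlapped with any library of the next in this order. Among 23190 genes ranked by the WT mean per length, Mybpc2 stood at place 41, Mybpc1 at 137, Mybph at 951 and Mybpc3 at 7791.

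**Figure D1:**
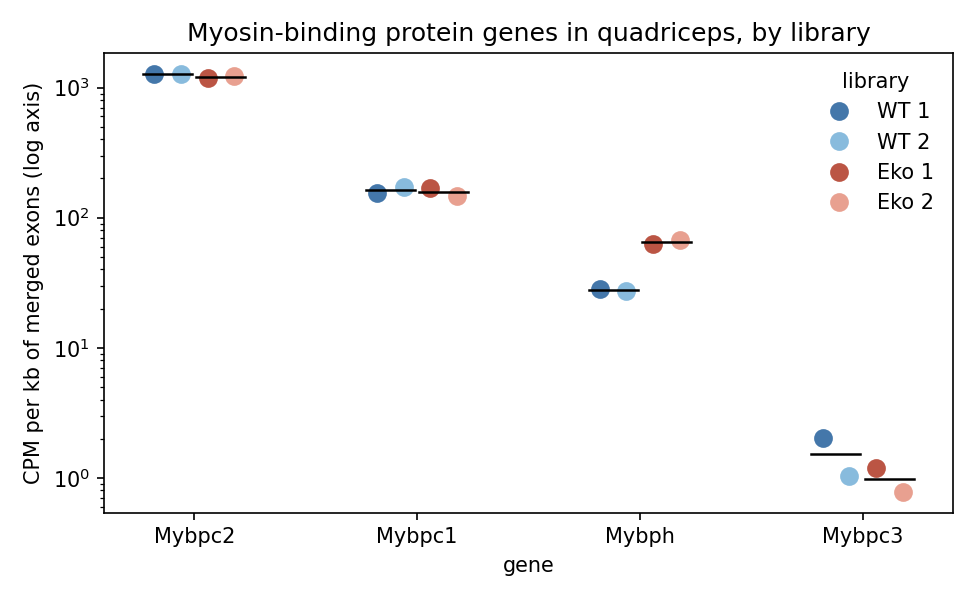
Levels of the 4 detected myosin-binding protein genes in each library, in CPM per kb of merged exons on a log axis, with the mean of each genotype (n = 2 mice) as a black line. Mybph is the gene whose libraries separate widely by genotype, from 27.5 and 28.3 to 62.9 and 66.8 CPM per kb.

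Mybphl had 0 counts in all 4 libraries, which allows up to 3 counts in each. The atrial light chain gene Myl7, a heart marker, was also at 0 in every library. Transcripts of these genes were thus not detectable at this depth.

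In the summed level of the family per length, the genotypes were close. The sums were 1447 and 1473 CPM per kb in WT against 1421 and 1449.6 in Eko mice, with Eko replicate 2 above WT replicate 1. Mybpc2 made up 87.3% and 86.4% of the sum in WT against 83.6% and 85.2% in Eko mice, and this share did not overlap between genotypes. Mybph made up 1.96% and 1.87% in WT against 4.43% and 4.61% in Eko mice, again without overlap. The Mybpc1 share overlapped, at 10.6% and 11.6% against 11.9% and 10.2%. For each unit of Mybph, WT muscle held 44.6 and 46.3 units of Mybpc2 per length, and Eko muscle held 18.9 and 18.5. The ratio of the fast to the slow C-protein, Mybpc2 to Mybpc1, was 8.22 and 7.44 in WT against 7.02 and 8.39 in Eko mice and showed no such gap.

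Between the genotypes, 1 of the 4 members tested passed the threshold of an adjusted p below 0.05, and it was higher in Eko mice. Of all genes tested, 0.416% passed, with 0.105% higher and 0.31% lower in Eko mice. In 2 of the 4 members, the mice of the genotypes did not overlap, which held for 43.8% of all genes tested. Since the family was chosen on this contrast, nothing is read from these counts. The median log2 fold change of the 4 members was -0.05, against -0.01 over all genes tested.

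Mybph, the short H-protein, had 5002 and 5183 counts in WT against 12634 and 11132 in the Eko mice. On the CPM scale these were 65.9 and 64.1 against 147 and 156, so each Eko mouse was above each WT mouse. The log2 fold change was 1.22 (standard error, SE, 0.07), a fold of 2.32. Mice of the same genotype were close in Mybph, with the higher mouse at 1.03 times the lower in WT and 1.06 times in Eko mice. No other member combined a gap between genotypes of this size with so small a spread.

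Mybpc2 had between 318866 and 371968 counts, by far the most of the family. Its levels were 4561 and 4599.6 CPM in WT against 4288 and 4459 in Eko mice. Each Eko mouse was thus below each WT mouse. The log2 fold change of Mybpc2 was -0.07 (SE 0.08), smaller than its standard error, and it did not pass the threshold.

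For Mybpc1, the genotypes overlapped. The slow C-protein was at 695 and 775 CPM in WT against 766 and 666 in Eko mice, a log2 fold change of -0.04 (SE 0.10). Its sign turned to 0.06 when either WT replicate 2 or Eko replicate 2 was left out.

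Mybpc3 had few reads, 644 and 346 counts in WT against 426 and 233 in Eko mice. Its levels were 8.49 and 4.28 CPM in WT against 4.94 and 3.26 in Eko mice. WT replicate 1 was the high mouse, at 1.98 times the other WT mouse, and the genotypes overlapped. The log2 fold change was -0.63 (SE 0.33), which passed the threshold only when the filter on low counts was left out, among the alternatives run. Without WT replicate 1 it was -0.06, and without WT replicate 2 it was -1.03.

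**Figure D2:**
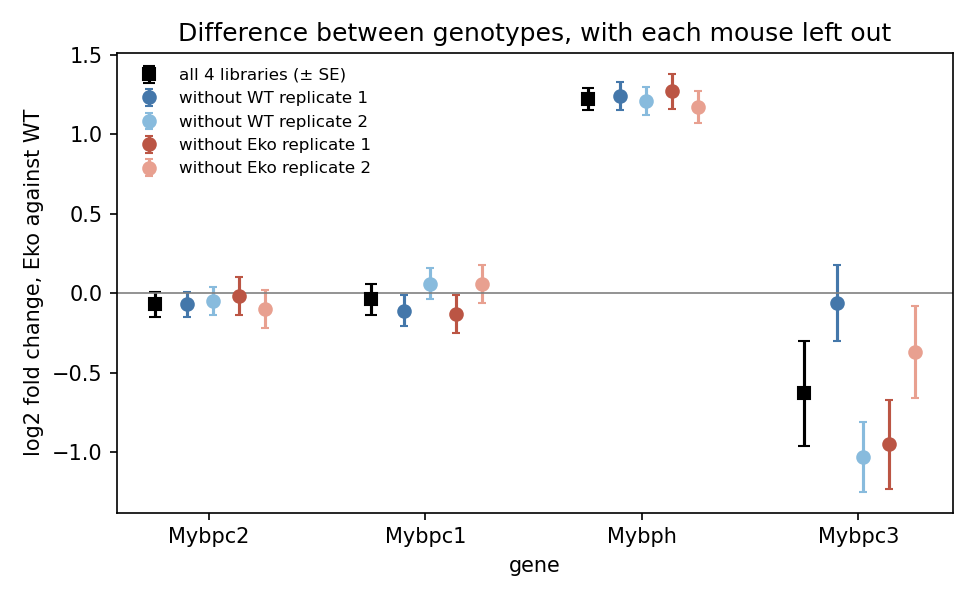
Log2 fold change of each detected member, Eko against WT, for all 4 libraries (black squares) and with each mouse left out (circles), with bars of 1 standard error. Mybph stays between 1.17 and 1.27, while Mybpc3 ranges from -1.03 to -0.06.

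Mybpc3 was compared with other heart-type genes, as the library that was high in Mybpc3 was high in these too. Myh6, the alpha heavy chain of heart myosin, was at 106 and 52.4 CPM in WT against 58.9 and 41.7 in Eko mice. Troponin genes of the heart followed, with Tnni3 at 7.21 and 3.83 CPM in WT against 4.38 and 3.22 in Eko mice. Of 7 heart markers tested, 5 (Myh6, Nppa, Tnni3, Tnnt2 and Ryr2) ranked the 4 libraries as Mybpc3 did, namely WT replicate 1, Eko replicate 1, WT replicate 2 and Eko replicate 2 from high to low. Over all genes tested, 5.26% had that order. This comparison of orders was made after the values were seen. Nppb and Gja5 had other orders, with Gja5 highest in WT replicate 2 (3.61 CPM). The order of Nppa rests on only 14 to 23 counts. The 8 heart markers listed summed to 138 and 71.4 CPM in WT against 78.4 and 57.5 in Eko mice, with Myl7 at 0 throughout and Nppa, the atrial peptide, between 0.196 and 0.303 CPM. All 7 tested had a negative log2 fold change, from -0.66 to -0.21, and none passed the edgeR test or had an unadjusted p below 0.05, nor did any pass with DESeq2.

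The same order was seen in 3 of 4 adipocyte markers (Adipoq, Plin1 and Cidec). Adipocyte markers summed to 31.6 and 13.8 CPM in WT against 17.2 and 5.44 in Eko mice, and none was at 0. The part of the fat and heart-type transcripts in the level of Mybpc3 was not tested.

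**Figure D3:**
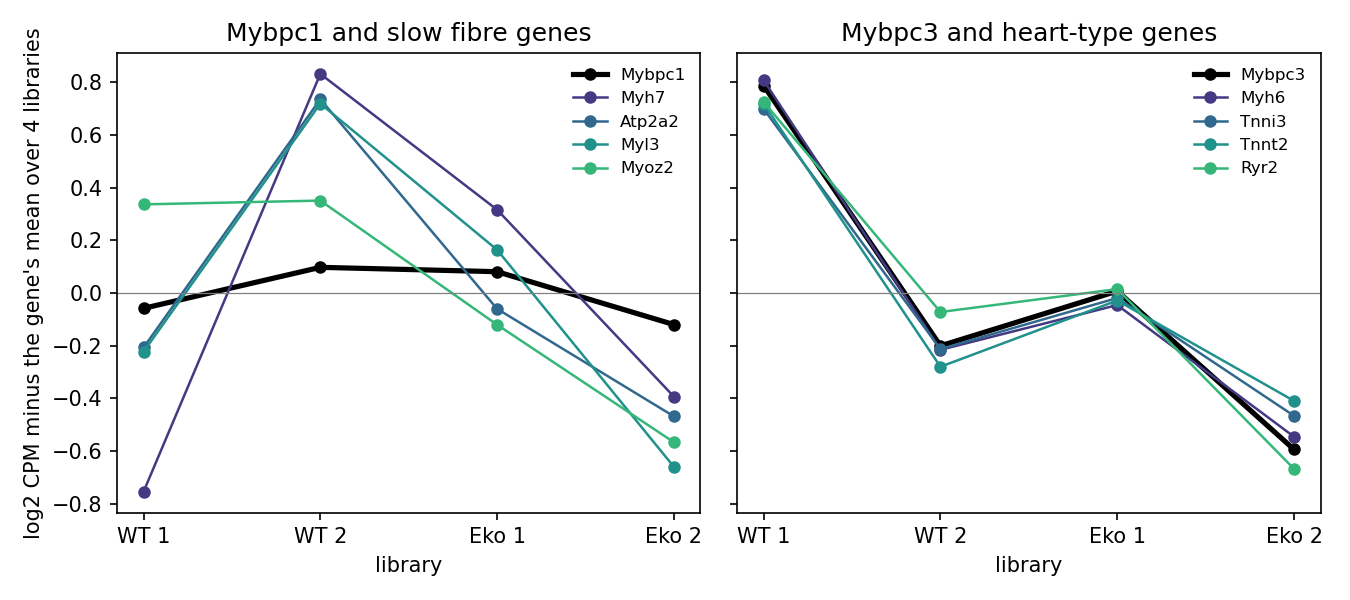
Library by library values of Mybpc1 with 4 slow fibre genes (left) and of Mybpc3 with 4 heart-type genes (right), as log2 CPM minus the mean of the gene over the 4 libraries. Mybpc3 and Myh6 run together from WT replicate 1 (8.49 and 106 CPM) to Eko replicate 2 (3.26 and 41.7 CPM), while Mybpc1 moves less than the 4 slow fibre genes shown. The heart-type genes shown are all among those with the order of Mybpc3.

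Mybpc1 was set beside the slow fibre genes in the same way, also with the values known. Slow fibre genes summed to 494 and 1042.5 CPM in WT against 727 and 470.4 in Eko mice, and WT replicate 2 was highest in both the sum and Mybpc1. Of 14 slow fibre genes, 4 (Myl2, Myl3, Atp2a2 and Sln) ranked all 4 libraries as Mybpc1 did, against 3% of all genes tested. Myh7, the slow heavy chain, was at 113 and 339 CPM in WT against 237 and 145 in Eko mice. Its span between libraries was far wider than that of Mybpc1, which went from 666 to 775 CPM. The part of fibre content in the level of Mybpc1 was not tested.

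None of the 14 slow fibre genes passed the edgeR test, and 1, Myoz2, had an unadjusted p below 0.05 and passed with DESeq2. Of the 16120 genes tested, 1864 had an unadjusted p below 0.05 and 318 passed with DESeq2. Myoz2, a Z-disc protein that binds calcineurin, was at 39.3 and 39.7 CPM in WT against 28.7 and 21.0 in Eko mice (log2 fold change -0.67, adjusted p = 0.154 with edgeR's quasi-likelihood test and 0.00216 with its likelihood ratio test). Atp2a2, the slow calcium pump, had a log2 fold change of -0.59 with overlapping genotypes. The median over the list was -0.17, against -0.01 over all genes tested.

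Mybpc2 is a fast fibre protein, and none of the 15 fast fibre genes passed the edgeR test. Unadjusted p-values were below 0.05 for 3 of them (Myh1, Myh2 and Mylk2), and the same 3 passed with DESeq2, Mylk2 being named with its values known. Over all 16120 genes tested, these numbers were 1864 and 318. The fast heavy chains differed in direction. Myh4, the most abundant, was at 64359 and 64361 CPM in WT against 65461 and 69587 in Eko mice, a log2 fold change of 0.07. Myh2 was at 1576 and 1709 CPM in WT against 1264 and 1041 in Eko mice, a log2 fold change of -0.51 (adjusted p = 0.161 with edgeR's quasi-likelihood test and 0.01 with its likelihood ratio test). Myh1 had a log2 fold change of -0.44 (adjusted p = 0.261 with edgeR), with each Eko mouse below each WT mouse. Among the other abundant genes of the list, the calcium pump gene Atp2a1 had a log2 fold change of 0.11 and the tropomyosin gene Tpm1 of 0.11. The list median was 0.11.

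Partners of the C-proteins on the thick filament were taken as 20 genes for myosin chains, titin, and M-band and related proteins, some of which are also in the fibre lists. Of these, 1 passed the edgeR test and was lower in Eko mice. This was Igfn1, which like the C-proteins has immunoglobulin and fibronectin domains. It was at 90.3 and 45.0 CPM in WT against 12.2 and 14.1 in Eko mice, a log2 fold change of -2.36 (SE 0.30, adjusted p = 0.0463 with edgeR). Igfn1 was not called with limma-voom or when only genes of at least 1 CPM in 2 libraries were tested. Titin, the filament along which the C-proteins are spaced, was at 18810 and 21229 CPM in WT against 22486 and 24227 in Eko mice (log2 fold change 0.22, adjusted p = 0.466 with edgeR). Myom3, a protein of the M-band, had a log2 fold change of -0.63 and Myl1, a fast light chain, of -0.09, and neither passed. The list median was -0.10, and 14 of the 20 had a negative log2 fold change.

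Mybph was also set beside 20 genes of developing or denervated muscle, of which 19 were tested. None passed the edgeR test, 3 had an unadjusted p below 0.05 (Actc1, Hdac4 and Cdkn1a), and 1, Cdkn1a, passed with DESeq2 (a gene named with its values known). Among the 16120 genes tested, 1864 had such an unadjusted p and 318 passed with DESeq2. Actc1, the heart actin that is also made in young skeletal muscle, was at 96.7 and 55.9 CPM in WT against 150.4 and 163 in Eko mice. Its log2 fold change was 1.04 (SE 0.22, adjusted p = 0.172 with edgeR's quasi-likelihood test), with each Eko mouse above each WT mouse. Actc1 passed with edgeR's likelihood ratio test (adjusted p = 0.00144), as did Cdkn1a (adjusted p = 0.0136), while DESeq2 gave Actc1 an adjusted p of 0.169. Myl4, the light chain of embryonic and atrial muscle, had a log2 fold change of 0.60, Hdac4, a histone deacetylase that binds MEF2 factors, of 0.19, and Musk, a kinase of the neuromuscular junction, of -0.26. Actc1, Myl4 and Hdac4 ranked the 4 libraries as Mybph did, 3 of 19 genes, against 4.75% of all genes tested. This order was compared with the values known, and the family was chosen on the contrast it reflects, so nothing is read from the match. The WT mice were close in Mybph (65.9 and 64.1 CPM) and in Hdac4 (37.4 and 37.1 CPM). The median of this list was -0.04.

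Genes for kinases and phosphatase subunits that act on C-proteins or belong to the same enzyme families made up a list of 16. None passed the edgeR test, 2 had an unadjusted p below 0.05 (Prkca and, named with its values known, Rps6ka3), and 1, Prkca, passed with DESeq2. Again, 1864 of the 16120 genes tested had an unadjusted p below 0.05, and 318 passed with DESeq2. Prkca, a protein kinase C gene, was at 109 and 104 CPM in WT against 88.1 and 81.6 in Eko mice (log2 fold change -0.33, adjusted p = 0.178 with edgeR). The abundant members Camk2a, Rps6ka2 and Camk2b had log2 fold changes of -0.01, 0.07 and 0.14, and Prkd1 had -0.24. The list median was 0.00.

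The genes around Mybph were examined because Adora1, the adenosine A1 receptor gene, overlaps it on the opposite strand and shares 1162 bases of exon with it. The libraries were made with a stranded kit, but a strand setting for counting is not given in the sources used here, so reads of the genes may not be told apart. Adora1 had 151 and 273 counts in WT against 591 and 228 in Eko mice, in all 3.66% of the counts of Mybph. Eko replicate 1 was high in Adora1, and the genotypes overlapped (log2 fold change 0.91, adjusted p = 0.432 with edgeR). Myog, the myogenic factor gene, lies 88756 bases beyond Mybph and is the nearest gene with counts on that side. It was at 2.16 and 5.18 CPM in WT against 2.34 and 4.14 in Eko mice (log2 fold change -0.19). Chil1, 3266 bases before Mybph, had between 4 and 14 counts.

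**Figure D4:**
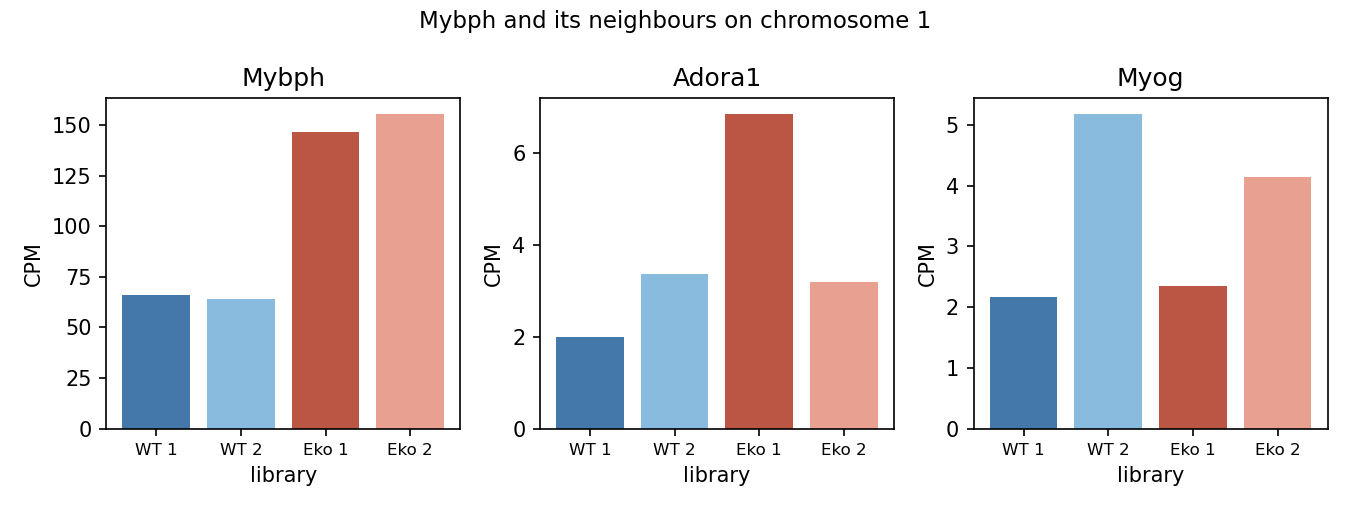
CPM of Mybph, of Adora1 on the opposite strand and of Myog, the nearest counted gene downstream, in each library, with axes from 0 that differ in scale. Both Eko mice are above both WT mice in Mybph (147 and 156 against 65.9 and 64.1 CPM), while Adora1 and Myog overlap between the genotypes.

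Neighbours of the other members were few in reads or close between the genotypes. Chpt1, beside Mybpc1, had a log2 fold change of -0.06, and Spic had at most 5 counts in a library. Gm48752 overlaps Mybpc1 on the opposite strand over 252 bases of exon and was not analysed here. Gm44646 overlaps Mybpc2 on the opposite strand over 192 bases of exon and had 19 to 100 counts, while Fam71e1 and Spib beside it had at most 38 and 6 counts. Spi1, before Mybpc3, had 74 and 45 counts in WT against 40 and 31 in Eko mice, a log2 fold change of -0.77 that did not pass the edgeR test (adjusted p = 0.494). Madd, after Mybpc3, had a log2 fold change of 0.12. Around Mybphl, Gm12522, Gm12525 and Psrc1 had at most 7 counts in a library.

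Genes with the pattern most like a member were those with the smallest Euclidean distance over the 4 libraries between log2 CPM values centred on each gene. For Mybpc3 they were the calcium channel subunit gene Cacnb4, the fatty acid synthase gene Fasn and Myh6, at distances of 0.0625, 0.0695 and 0.0753. For Mybph the 5 nearest were Gm37314, Ntn5, Pcdhga10, Gm44729 and Gm10327, at distances from 0.118 to 0.200. Some of these were low in reads, with 4 counts of Gm10327 and 5 of Gm44729 in WT replicate 1. For Mybpc1 the nearest were 2210016F16Rik and Gm43999, and for Mybpc2 they were Alpk3, Cbwd1 and Fli1, with distances from 0.00569 to 0.0219. Mybpc1 and Mybpc2 themselves had a narrow range over the libraries. With 4 libraries, these are descriptions of order and size only.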

How the data were processed

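RNA was extracted from quadriceps of 2 WT and 2 Mef2dα2 Eko mice, 1 library per mouse, and genotypes were taken from the library names. The authors checked reads with FastQC, aligned them to mm10 and estimated expected counts per gene with RSEM and the Ensembl GRCm38 annotation, and the submitters' processing notes name STAR 2.6.1a. The expected counts were deposited without normalization. All were whole, so rounding changed 0 values.

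Counts were analysed in R 4.3.3 with edgeR 4.0.16: TMM, the default filter on low counts (16120 of 24621 genes with any count kept) and the quasi-likelihood test over all genes with Benjamini-Hochberg adjustment at 0.05, with genotype as the sole term and a prior count of 0.125. The fit was tested on simulated data. Totals ran from 72626757 to 85176059 counts, and every pair differed by more than sampling noise (chi-square per degree of freedom 38.7 to 230). Pairs with WT replicate 1 were at 130 to 230, and those without it at 38.7 to 45.3. Positions and exon lengths are from GENCODE M21 on GRCm38, which held the symbols of 92.1% of rows. RSEM divides reads shared between genes by a model.

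The members and lists were chosen with earlier results of these data known. Named genes were the members, their neighbours, the genes most like them, and from each list those called, the 3 with most WT counts and the 2 with the largest absolute log2 fold change. Other genes, including those named for their order over the libraries, were named with their values known, and 1 gene that the rule names is not reported here. Alternatives were RLE and upper-quartile normalization, no filter, at least 1 CPM in 2 libraries, DESeq2 1.42.0 with and without independent filtering, the likelihood ratio test, limma-voom (limma 3.58.1), a replicate block, the longest transcript as length, and leaving out each mouse.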

Additional observations from a re-analysis of the deposited data

How the results depend on the processing

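With 2 mice per genotype, the differences in Mybpc1, Mybpc2 and Mybpc3 did not pass the threshold in the main fit. The genotypes overlapped in Mybpc1 and Mybpc3 but not in Mybpc2. Mybph kept its direction in all alternatives and its call in those with all mice, and its log2 fold change was 1.17 to 1.27 with each mouse left out. As the family was chosen for Mybph on these same libraries, this was close to given by the choice and supports nothing. Mybpc2 ran from -0.10 to -0.02, Mybpc3 from -1.03 to -0.06 and Mybpc1 from -0.13 to 0.06, the value of 0.06 being that without WT replicate 2 and also without Mef2dα2 Eko replicate 2. Without the filter on low counts, Mybpc3 was called at -0.63 (adjusted p = 0.00162 with edgeR, 0.0601 to 0.971 in the fits with a mouse left out), which made 2 members called, and 799 of 24621 genes were called in place of 67. The cause was not tested.

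Called genes over the whole table numbered 23 of 12241 with at least 1 CPM in 2 libraries, 318 with DESeq2, 309 without its independent filtering, 312 with the likelihood ratio test, 57 with limma-voom and 99 to 299 with a mouse left out, most without WT replicate 2. For the lists, no filter gave 1 C-protein kinase, 3 developmental, 3 fast, 5 slow and 6 thick filament genes. DESeq2, with or without independent filtering, gave 1, 1, 3, 1 and 3 in that order. The likelihood ratio test gave 2 developmental, 1 fast, 1 slow and 2 thick filament genes, and the thick filament list had 0 with limma-voom and with at least 1 CPM in 2 libraries. With each mouse left out, 0 to 2 developmental, 0 to 2 fast, 0 to 4 slow and 1 to 5 thick filament genes were called, the most for the slow and thick filament lists without Mef2dα2 Eko replicate 1. The causes were not tested.

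The libraries share replicate numbers, but same-numbered mice deviated together only weakly (correlation 0.162 across genes, 2 pairs), so the numbers were not taken to pair mice. With the replicate block, 186 genes were called, Mybph was at 1.22, Mybpc3 at -0.60, and 2 developmental and 1 slow fibre genes were called.

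With the longest transcript as length, Mybpc1 in WT was at 187 CPM per kb, the Mybpc1 share was 12.6% in WT and 12.5% in Mef2dα2 Eko mice, and the Mybpc2 share was 85.4% and 82.95%.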

Other observations

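Markers of other cells of the muscle give the setting in which the members were measured. Macrophage markers summed to 17.3 and 14.1 CPM in WT and 12.6 and 9.51 CPM in Mef2dα2 Eko mice, and all 4 had a negative log2 fold change. Schwann cell markers summed to 39.1 and 40.9 CPM in WT and 43.0 and 51.5 CPM in Mef2dα2 Eko mice, with all 4 positive. Satellite cell markers summed to 19.0 and 16.5 CPM in WT and 18.2 and 19.7 CPM in Mef2dα2 Eko mice, so their sums overlapped, and all 4 had a positive log2 fold change, from 0.05 to 0.66 with a median of 0.36. Endothelial markers summed to between 119 and 137 CPM, smooth muscle markers to between 85.8 and 98.0 CPM and fibroblast markers to between 223 and 299 CPM. In edgeR's quasi-likelihood test none of these markers, nor of the adipocyte and skeletal muscle markers, passed, and none passed with DESeq2. Unadjusted p-values were below 0.05 for 3 macrophage, 2 Schwann cell, 2 adipocyte, 1 smooth muscle and 1 fibroblast markers, of 4 listed for each. The same held for 1864 of the 16120 genes tested. None of the macrophage, Schwann cell or satellite cell markers was at 0 in a library. The part of these cells in the levels of the members was not tested.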
